A study of Papio anubis with 767 samples.

Results

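The genes described here encode the proteins of the mitochondrial ribosome. They were chosen by name alone, as the rows of the deposited expression table whose symbol starts with MRPL or MRPS followed by a number, and 63 of the 29202 rows met this rule, 39 named MRPL and 24 named MRPS. Expression was measured by RNA sequencing of polyA RNA in 64 tissues of 12 male Papio anubis, aged 5 to 6 years, which lived in cycles of 12 h light and 12 h dark, were fed at fixed hours and received no drug and no genetic change. A single animal was sampled at each time, every 2 h from ZT0 (zeitgeber time, hours after lights on) to ZT22, and by the labels that animal gave all the tissues of its time. Time of day and animal therefore cannot be told apart, and every test here has the 12 animals as its replicates. The tissues were 22 brain regions, 35 peripheral organs and 7 eye and gland tissues, each with 12 libraries except the iris with 11, so that 767 libraries were used.

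Mitochondria keep a small genome, and the few proteins it encodes, all of them parts of the respiratory chain or of ATP synthase, are made on ribosomes inside the organelle. The RNAs of these ribosomes come from the mitochondrial genome, but all of their proteins are encoded in the nucleus, made in the cytosol and imported. Some of them descend from bacterial ribosomal proteins and others were gained by the mitochondrial ribosome later. The mitochondrial ribosome has a small subunit, which reads the messenger RNA, and a large subunit, which joins the amino acids. MRPS18A and MRPS30 carry the small-subunit name but sit in the large subunit, so 41 members counted here as large-subunit genes and 22 as small-subunit genes. Of the 63 members, 40 have a bacterial homologue and 23 do not. RefSeq's Panubis1.0 annotation lists 74 protein-coding symbols of this form, 60 of the members among them, and the other 14 were not analysed here.

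The libraries held 32790 to 31811286 reads assigned to genes (median 8255404), of which at least 110 and, in the median library, 21930 fell on members. The median count of a member was under 100 reads per library for 14 members. The amygdala library of ZT8 was the shallowest and stood apart from its tissue. In 93 libraries the pattern of animal-specific genes matched another animal than the labelled one, among them every library of the ascending colon, descending colon, duodenum, stomach fundus, testicles and thyroid. In 77 libraries a list of cell type markers was far above its median in the tissue. For some of them the list was that of the labelled tissue (spermatid markers in testicles at ZT2 and ZT14, stomach epithelium in the stomach fundus, adipocytes in pericardial white adipose), and for others that of another tissue, as in the iris libraries of ZT6 and ZT8 (adipocyte and erythroid lists in both), the kidney cortex library of ZT2 and the heart library of ZT4. Of the tissues compared below, heart, gastrocnemian muscle, liver, kidney cortex and aorta held most of their defining markers (medians of 2005 FPKM for TNNT2 in heart and of 288000 FPKM for ALB in liver). NPPA, an atrial marker, had a median of 1.78 FPKM in the heart libraries, and the testicles libraries had low spermatid markers outside ZT2 and ZT14 (median 0.23 FPKM for PRM2). In tissue samples, fewer cells of a type and less RNA per cell cannot be told apart.

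Nearly all members were expressed in nearly all tissues. FPKM is a level per length (fragments per kilobase of transcript), here scaled so that the typical gene agrees between libraries. At a mean of 1 FPKM, 57 of the 63 members were expressed in each of the 64 tissues, against 23.1% of all rows. MRPL33, a small protein of the large subunit with a bacterial homologue, had the highest mean over tissues at 256.5 FPKM. It was followed by MRPL20 at 130.4 FPKM, MRPL35 at 118 FPKM, MRPL48 at 114 FPKM and MRPL24 at 109 FPKM, all of the large subunit. The highest small-subunit member was MRPS6 at 95.7 FPKM. The lowest members were MRPS18C at 0.71 FPKM, MRPL52 at 2.27 FPKM, MRPL58 (a peptidyl-tRNA hydrolase that is also part of the large subunit) at 2.99 FPKM, MRPS22 at 6.56 FPKM and MRPL19 at 7.26 FPKM. MRPS18C is 1 of 3 homologues of bacterial S18 in this set. It was at 0 in 140 libraries with a median of 2 reads, and it was not tested for a body-wide rhythm. MRPS18A and MRPS18B, the other homologues, had means of 45.8 and 72.6 FPKM.

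The order of the members was shared between most tissues. The Spearman correlation of the 63 tissue means between tissues had a median of 0.84 over 2016 pairs of tissues, with -0.0045 as the lowest and 0.99 as the highest value. Against the mean of the other tissues the iris had the lowest value, 0.42. These correlations are across genes and describe the order only. The SD of the log2 tissue means had a median of 0.71 over members, and 77.2% of the 15512 rows with a mean of at least 1 FPKM exceeded that value. The range over members ran from 0.33 for MRPS31 to 1.44 for MRPL41. The 5 members with the largest spread were MRPL41 (1.44), MRPS12 (1.39), MRPL57 (1.29), MRPL55 (1.26) and MRPL28 (1.23).

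MRPL41, a large-subunit protein without a bacterial homologue, had 0.34 to 10.2 FPKM in the 12 retina libraries (median 1.65, with a median of 5 reads). In the lateral hypothalamus it had 116.5 to 461.9 FPKM (median 262). These are its lowest and highest tissues by the median library, so their distance follows from the choice of tissues. MRPS12, the homologue of the bacterial S12 protein of the decoding centre, had a mean of 0.52 ± 0.34 FPKM (SD, n = 12) in the optic nerve head, where the median library held 1 read of it. Its mean of 209.8 ± 541.6 FPKM in the iris (SD, n = 11) rested on the library of ZT8 at 1807 FPKM, and the median iris library had 17.4 FPKM. MRPL57 had a median of 114 FPKM in the pineal gland (52.0 to 151) and of 1.07 FPKM in testicles (0.42 to 4.22, with a median of 4 reads). MRPL55 had a median of 188 FPKM in the lateral hypothalamus and 2.85 FPKM in the retina, and MRPL28 had medians of 57.1 FPKM in the lateral hypothalamus and 0.50 FPKM in testicles.

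The highest abundance of any member was that of MRPL33 in skeletal muscle. In the abdominal muscle its libraries ran from 787.7 to 3132 FPKM with a median of 1487, and in the heart from 478 to 1017 FPKM with a median of 794. The lowest tissue for MRPL33 was the oesophagus, with a median of 71.3 FPKM (57.8 to 128). MRPS6 peaked in the kidney medulla, where its libraries had 250 to 1149 FPKM (median 601), against 73.0 to 165 FPKM (median 116) in the kidney cortex and a second highest tissue median of 195 FPKM in the pineal gland. In RefSeq's annotation the gene of the inositol transporter SLC5A3 overlaps MRPS6, and reads of the pair may not have been told apart. Overlaps with a protein-coding gene were listed there for 12 members, including MRPL46 and MRPS11 with each other. MRPL20 stood highest in the lateral hypothalamus, with 157 to 1301 FPKM (median 458) against a median of 230 in the thalamus.

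By the mean, the iris held the highest level of 21 members, but by the median library it held the highest level of none. Its libraries of ZT6 and ZT8 had member medians of 100.9 and 218.7 FPKM, whereas the other 9 had 16.9 to 44.8 FPKM. By the median library the lateral hypothalamus was highest for 16 members, abdominal muscle for 12, and heart and kidney cortex for 6 each. The retina was lowest for 14 members, the optic nerve head for 11, bone marrow for 10 and testicles for 7. The lateral hypothalamus was at the same time the lowest tissue of 5 members, MRPL3, MRPL9, MRPL44, MRPS18B and MRPS27.

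Summarised as the median over members in each library and ordered by the mean of these, abdominal muscle had the highest level, with a mean of 51.4 ± 11.5 FPKM (SD, n = 12) and libraries from 34.1 to 68.8 FPKM. The iris came next at 51.3 ± 60.3 FPKM (SD, n = 11), with a median library of 27.2 FPKM. The ascending colon had 47.3 ± 11.2 FPKM, the lateral hypothalamus 44.7 ± 9.73 FPKM and the heart 39.0 ± 3.76 FPKM (SD, n = 12 each). Kidney cortex had a mean of 47.5 ± 28.9 FPKM, with a median library of 39.8 FPKM and the library of ZT2 at 132 FPKM. At the low end stood the retina at 12.1 ± 2.50 FPKM, testicles at 13.3 ± 2.81 FPKM, the optic nerve head at 15.5 ± 1.95 FPKM and the olfactory bulb at 15.6 ± 2.36 FPKM (SD, n = 12 each). Ordered by these means, 62 of the 63 neighbouring pairs of tissues differed by less than the smaller of their SDs, so only distant positions in the order differ beyond the spread. Brain regions lay between 15.6 and 44.7 FPKM (median 31.3 over regions) and peripheral organs between 13.3 and 51.4 FPKM (median 29.2).

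**Figure D1:**
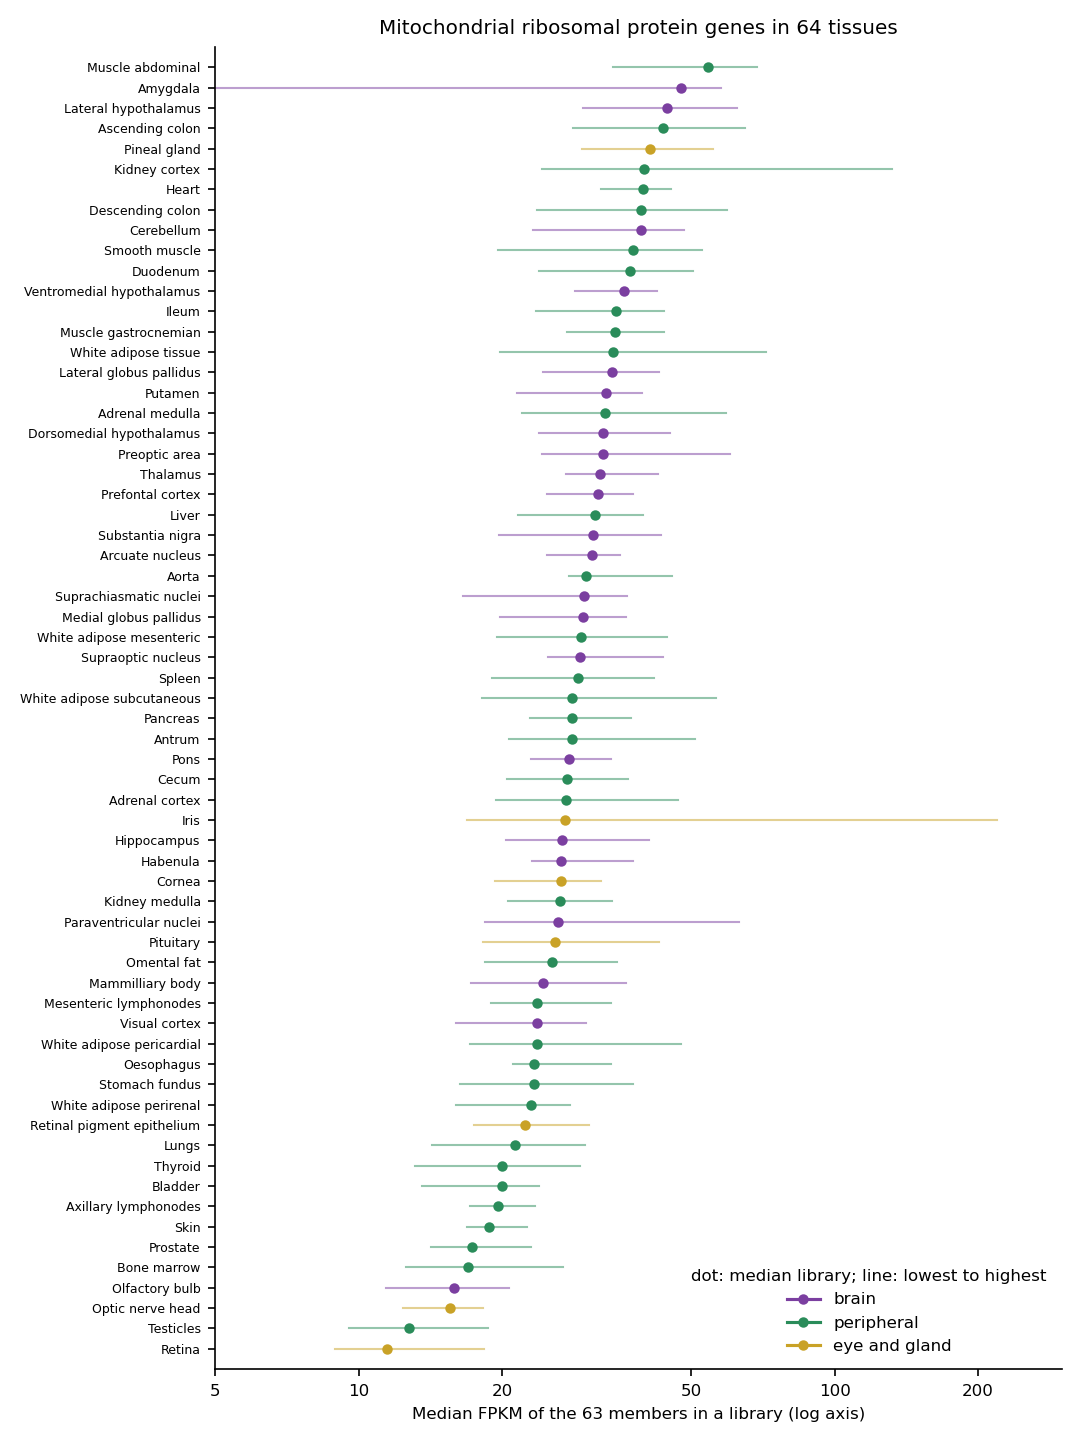
Median FPKM of the 63 members in each library (log axis), by tissue, with the median library as a dot and the lowest to highest library as a line, coloured by tissue class and ordered by the median library. Abdominal muscle stands at the top and the retina at the bottom; the lines of the iris and the kidney cortex reach 218.7 and 132 FPKM through few libraries, and the amygdala line leaves the axis because its library of ZT8 had a median of 0.

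The order of tissues by these means depends on how libraries are scaled. The deposited values are scaled so that the typical gene agrees between libraries. When each library was instead scaled to the same sum over genes, the pancreas moved from rank 35 to rank 64, the heart from rank 9 to rank 56 and testicles from rank 63 to rank 41. Of the tissues highest as deposited, abdominal muscle moved from rank 1 to rank 33, the iris from 2 to 40 and the lateral hypothalamus from 5 to 37. Kidney cortex moved from rank 3 to rank 6 and the ascending colon from rank 4 to rank 1. Differences between tissues are therefore given below under both scalings, with the members' median set against that of all tested genes.

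The balance between subunits was close to even in most tissues. The median large-subunit member was at 0.56 times the median small-subunit member in the retina (log2 ratio -0.85 ± 0.47 SD, n = 12), the lowest ratio of the 64 tissues, followed by 0.61 times in the optic nerve head and 0.63 times in the heart. The highest ratios were 1.46 in the iris (log2 ratio 0.54 ± 0.63 SD, n = 11), 1.29 in the lateral hypothalamus (0.36 ± 0.49, n = 12) and 1.25 in skin (0.32 ± 0.18, n = 12). In the iris and the lateral hypothalamus the SD exceeded the log2 ratio, and the iris value includes the libraries of ZT6 and ZT8.

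Brain and peripheral tissues were compared by the mean brain level minus the mean peripheral level of each animal, and a member was called at an adjusted p under 0.05 and a difference of at least 1.5-fold. In brain, 19 of 62 members were higher, close to the background of 28.9% of all genes, and 4 were lower, against 32.9%. With libraries scaled to the same sum, 3 were higher and 28 lower, while the median difference of all genes moved from -0.13 to -0.61. The members' median difference was 0.31 above that of all genes on the log2 scale as deposited and 0.11 above it with the same sum. The members called higher under both scalings were MRPL55, MRPL28 and MRPL41, and those called lower under both were MRPL3, MRPL44, MRPS18B and MRPS27.

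MRPL41 had 54.7 to 97.5 FPKM over the 12 animals' brain means (median 71.1) and 9.31 to 50.7 FPKM over their peripheral means (median 24.3). The groups did not overlap, and the log2 difference was 1.32 ± 0.13 SE (adjusted p = 4e-08, higher in 12 of 12 animals). MRPL55 differed by 1.51 ± 0.09 and MRPL28 by 1.49 ± 0.09, each higher in 12 of 12 animals. MRPL3, the homologue of the bacterial L3 protein near the peptidyl transferase centre, went the other way: its brain means ran from 10.7 to 15.3 FPKM (median 12.8) and its peripheral means from 29.3 to 51.3 FPKM (median 40.7). The difference of -1.61 ± 0.06 SE was 3.05-fold (adjusted p = 2.35e-14), lower in 12 of 12 animals. MRPL44, which carries a fold of the RNase III family, fell below its peripheral level by 1.76-fold, MRPS18B by 1.58-fold and MRPS27, a pentatricopeptide repeat protein, by 1.53-fold.

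Each of 6 tissues was then compared with the mean of the other tissues in the same animal. In kidney cortex, 35 of 63 members were higher (background 17.1%) and 1 was lower (44.1%). With the same sum 34 were higher under both scalings, and the members' median stood 1.22 above that of all genes as deposited and 1.27 with the same sum. Both counts of higher members include MRPS18C, whose mean over tissues was 0.71 FPKM. It passed the filter of 1 FPKM only through its level in kidney cortex, so its call there was largely set by the filter and is no support. MRPL13 was 4.75-fold higher (log2 difference 2.25 ± 0.15 SE, 12 of 12 animals) with 49.6 to 138 FPKM in the kidney cortex libraries. MRPS25 was 4.67-fold higher in 12 of 12 animals, although its library of ZT2 reached 1308 FPKM and the next highest had 213. MRPL58 was the member called lower, by 1.83-fold in 10 of 12 animals; 4 members were called lower without the animal of ZT2 and 2 without that of ZT0.

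In the gastrocnemian muscle, 31 of 62 members were higher (background 25.2%) and 4 were lower (41.4%). Of these, 18 were higher and 4 lower under both scalings. MRPL33 was 3.56-fold higher (1.83 ± 0.07 SE on the log2 scale, 12 of 12 animals), MRPL38 3.14-fold, MRPS18B 3.02-fold and MRPL15 2.79-fold. The lower members were MRPS6 (2.12-fold), MRPL22 (1.64-fold), MRPS26 (1.62-fold) and MRPL17 (1.60-fold). The members' median stood 0.90 above that of all genes as deposited and 0.82 above it with the same sum.

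In the heart, 28 of 62 members were higher (background 18.5%) and 7 lower (40.5%) as deposited, whereas with the same sum 3 were higher and 35 lower, and the members' median difference turned from 0.51 to -0.67. The median of all genes shifted from -0.35 to -1.16 between these scalings, and the members' median stood above it by 0.87 and 0.50. MRPL35, MRPL15 and MRPL33 were higher under both scalings. MRPL35 had 270 to 562 FPKM in the heart libraries (median 438) and was 4.36-fold higher as deposited (log2 difference 2.12 ± 0.07 SE) and 0.89 on the log2 scale with the same sum, in 12 of 12 animals as deposited. MRPL14, MRPL28, MRPL54, MRPL57, MRPS12, MRPS26 and MRPS34 were lower under both scalings, and MRPS26 had the largest difference, 2.58-fold. Without the animal of ZT16, ZT18, ZT20 or ZT22, 4 members in place of 7 were called lower in the heart. MRPL51 was called in opposite directions, at 0.59 as deposited and -0.63 with the same sum.

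In the liver, 17 of 63 members were higher (background 19.1%) and 15 lower (40.3%), and 2 and 15 of these were called the same way under both scalings. MRPS18C, with a mean of 0.71 FPKM over tissues, entered this test too only through its level in the tissue itself. The members' median difference turned from 0.15 to -0.55 between the scalings, while that of all genes was -0.40 and -0.85. MRPS28 (2.83-fold) and MRPL19 (2.65-fold) were the higher members under both, and MRPL41 (3.31-fold lower) and MRPS12 (2.53-fold lower) led the lower ones. In the aorta, 16 of 62 were higher (background 35%) and 10 lower (22.9%), of which 16 and 4 were called the same way under both scalings. The members' median difference was -0.03 as deposited and 0.39 with the same sum, close to the 0.07 and 0.41 of all genes. MRPS12 was 7.05-fold and MRPL41 6.54-fold higher in the aorta in 12 of 12 animals, while MRPL48 fell below the other tissues by 2.34-fold.

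Testicles had 40 of 62 members lower (background 35%) and 2 higher (32.6%). Scaled to the same sum, 21 were higher and 16 lower, while the median difference of all genes moved from -0.09 to 0.76. Under both scalings 16 members were called lower and 2 higher. The members' median stood 0.81 below that of all genes as deposited and 0.63 below it with the same sum. MRPS34 had the largest difference, 6.09-fold lower in 12 of 12 animals (log2 difference -2.61 ± 0.22 SE), followed by MRPL28 at 5.10-fold and MRPL41 at 4.93-fold. The higher members were MRPL3 (1.99-fold, 12 of 12 animals) and MRPL44 (1.54-fold, 10 of 12 animals; 1 member was called higher without the animal of ZT18), which were also among the 4 members that were lower in brain. Every testicles library matched another animal than the labelled one, so the pairing by animal does not hold for this tissue.

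For the day profile, each library was set against the mean of its tissue, the deviations were averaged over 63 tissues for each animal (the iris lacked ZT22 and was left out), and a 24 h cosine was fitted to the 12 animals. Of the 62 members tested, 50 were called rhythmic (80.7%), and of all 12055 genes tested 63.1%. Most members had fitted peaks in opposed spans of the day, and so did genes in general. Of all genes tested, 43.1% peaked between ZT4 and ZT8 and 34.9% between ZT16 and ZT20, called or not. The split into groups is therefore not particular to the members. A daytime group of 36 members had its fitted peak between ZT4 and ZT8, and 34 of them were called (54.8% of members; 35.2% of all genes were called with such a peak). A night group of 20 members had its peak between ZT16 and ZT20, and 16 of them were called (25.8% of members, against 23.1% of all genes). The other 6 tested members, MRPL20, MRPL32, MRPL46, MRPL9, MRPS14 and MRPS22, had other peak times and 0 were called by limma, also at an unadjusted p under 0.05.

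The daytime group had the larger amplitudes. All 13 members with an amplitude over 0.5 on the log2 scale were in it, whereas the largest amplitude of the night group was 0.26. Over all genes, 9.14% exceeded 0.5. MRPS12 had the largest amplitude, 0.88 ± 0.13 SE, with a peak at ZT5.75 and a fitted peak 3.37-fold over its trough (adjusted p = 0.000413). Its geometric mean over tissues was 3.51 FPKM in the animal of ZT22, 8.03 in the median animal and 17.97 in the animal of ZT2. The animals of ZT4 to ZT8 had 10.9 to 17.4 FPKM and those of ZT16 to ZT20 had 4.77 to 5.57 FPKM. These spans lie around the fitted peak and trough of the same animals, so the values describe the fit and are no further test. MRPL41 had an amplitude of 0.86 ± 0.11, and its geometric mean ran from 9.31 FPKM at ZT22 to 41.0 FPKM at ZT6 (median 20.8). MRPL4, whose bacterial homologue lines the exit tunnel for the new protein, followed with 0.76 ± 0.09, then MRPS34 with 0.66 ± 0.09 and MRPL38 with 0.65 ± 0.08. The smallest p-value was that of MRPS18A (amplitude 0.52 ± 0.05, peak at ZT6.54, adjusted p = 0.000269), which ran from 21.3 FPKM at ZT22 to 47.0 FPKM at ZT4. MRPS26 had an amplitude of 0.56 ± 0.07 and a peak at ZT6.21.

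In the night group, MRPL1, the homologue of the bacterial L1 protein of the L1 stalk, had an amplitude of 0.26 ± 0.03 and a peak at ZT18.03 (adjusted p = 0.000286). Its geometric mean was 37.9 FPKM in the animal of ZT4, 44.5 in the median animal and 56.4 in that of ZT20. The animals of ZT4 to ZT8 had 37.9 to 39.7 FPKM and those of ZT16 to ZT20 had 51.6 to 56.4 FPKM, which again describes the fit. MRPS28 had an amplitude of 0.20 ± 0.03 and rose from 32.7 FPKM at ZT6 to 46.8 FPKM at ZT22. MRPL33, the most abundant member, had an amplitude of 0.19 ± 0.03 and 183 to 242 FPKM, and MRPL13 had an amplitude of 0.19 ± 0.03. The group also held MRPL3, MRPL15, MRPL19, MRPL35, MRPL44, MRPL48, MRPS10, MRPS30, MRPS31 and MRPS35.

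**Figure D2:**
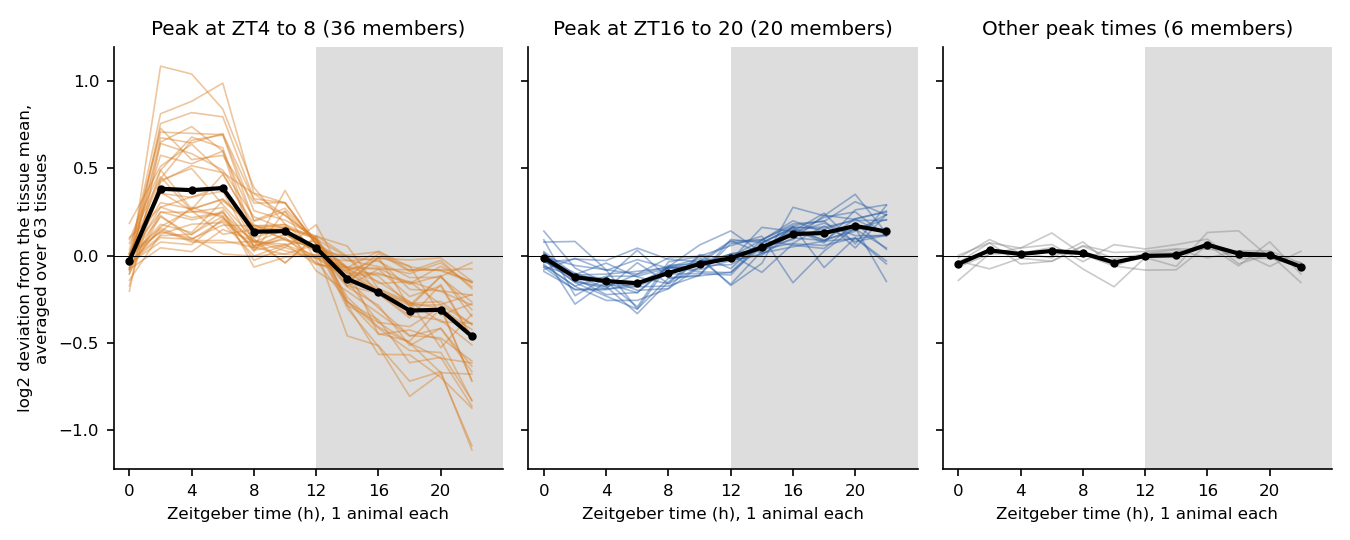
Deviation of each tested member from its tissue means, averaged over 63 tissues (log2), against the zeitgeber time of the animal, with the dark phase shaded; thin lines are members and the black line is their mean. The mean of the daytime group is near 0.38 at ZT2, ZT4 and ZT6 and at -0.46 at ZT22, the night group runs from -0.16 at ZT6 to 0.17 at ZT20, and the animal of ZT0 lies near 0 in each panel.

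The shape of these profiles was not that of a smooth cosine. The mean deviation of the daytime group was -0.03 in the animal of ZT0, 0.38 in that of ZT2, 0.38 and 0.39 at ZT4 and ZT6, 0.14 at ZT8 and ZT10, and then fell to -0.46 at ZT22. Between neighbouring times the largest steps were thus from ZT22 to ZT0 and from ZT0 to ZT2. The night group had the opposite sign at every time but ZT0, at a smaller size.

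An axis shared by genes in general moved with these profiles. The first principal component of the deviations, computed on 11993 genes without the members, took up 30.1% of the variance. Its mean over libraries was 0.88 at ZT6 and -0.96 at ZT22. The correlation with this axis over libraries had a median of 0.78 in the daytime group (0.48 to 0.96) and -0.22 in the night group (-0.69 to 0.23). With the axis as a covariate, 0 of the 62 members were called by limma, with 6 at an unadjusted p under 0.05 (smallest adjusted p = 0.19), and 0.174% of all genes were called. The lowest median read depths were those of ZT4 and ZT6, times at which the axis was high, and the part of depth in the profiles was not tested. With a linear trend over the sampling times as a covariate, 9 members were called: MRPL1, MRPL38, MRPL4, MRPL41, MRPS18A, MRPS18B, MRPS2, MRPS26 and MRPS28. The share of all genes called with this covariate is not given here, so these 9 are not set apart from genes in general. What the axis stands for was not tested.

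**Figure D3:**
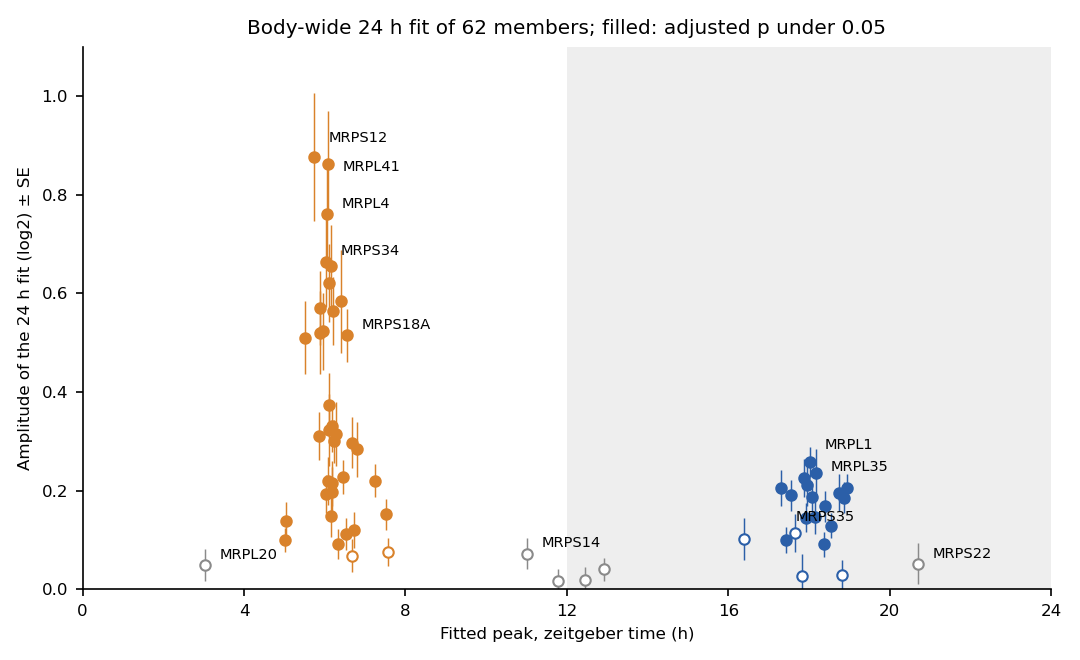
Amplitude of the body-wide 24 h fit (log2, with its SE) against the fitted peak time for 62 members, filled where the adjusted p is under 0.05 and with the dark phase shaded. Filled points stand near ZT6, with amplitudes up to 0.88, and near ZT18, with amplitudes up to 0.26.

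Both subunits and both origins contributed to each group. Of 41 large-subunit members tested 36 were called, 25 with a daytime peak and 11 with a night peak. Of 21 small-subunit members tested 14 were called, 9 by day and 5 by night, near the share of all genes. Over all genes 63.1% were called, 35.2% with a daytime and 23.1% with a night peak. Of 39 tested members with a bacterial homologue 32 were called, 22 by day and 10 by night, and of 23 without one 18 were called, 12 and 6. Exon length, as the FPKM values imply it, had a median of 796 bases in the daytime group and 1012 in the night group. Across the 62 members, the signed amplitude at ZT6 had a Spearman correlation of -0.32 with length and -0.27 with mean level, against -0.06 with length over all 12055 genes; these are descriptions across genes.

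Brain and periphery were fitted apart. Over the 22 brain tissues 22 of 62 members were called (background 31.7%; 14 without the animal of ZT6), and over the 35 peripheral tissues 50 of 62 (background 61.3%). The amplitude was smaller in brain than in periphery for 54 of 62 members and for 76.6% of all genes. With a cosine fitted to each animal's brain value less its peripheral value, 5 members differed in rhythm (MRPS12, MRPL41, MRPS34, MRPS26 and MRPL10), against a background of 5.67% of all genes. In the periphery MRPS12 ran from 2.60 FPKM at ZT22 to 18.7 FPKM at ZT4 (amplitude 1.11 ± 0.15 SE), and in brain from 5.75 FPKM at ZT22 to 18.6 FPKM at ZT2 (0.59 ± 0.12). The cosine fitted to brain less periphery, which takes in timing as well as size, had an amplitude of 0.52 ± 0.09 and an adjusted p of 0.0223. MRPL41 ran from 5.11 to 33.5 FPKM in the periphery and from 23.5 to 64.7 FPKM in brain, between the same animals of ZT22 and ZT6. MRPL10, which forms the base of the stalk that recruits translation factors, had amplitudes of 0.33 ± 0.05 in periphery and 0.10 ± 0.04 in brain. These calls did not hold under several other settings: limma called 0 of 62 members without the amygdala library of ZT8 (17 at an unadjusted p under 0.05), 0 without the libraries that match another animal (10) and 0 without those with a raised marker list (21). It also called 0 without the animal of ZT4 (17), ZT8 (15) or ZT20 (10), and 3, 3 and 2 without those of ZT6, ZT16 and ZT22.

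**Figure D4:**
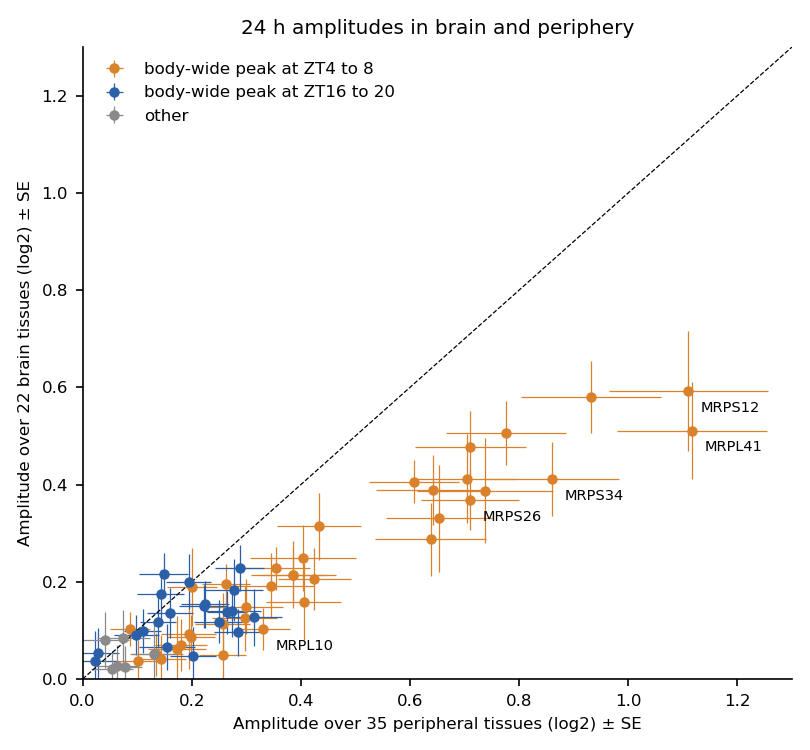
Amplitude of the 24 h fit over 22 brain tissues against that over 35 peripheral tissues (log2, bars are SE) for 62 members, with the line of equal amplitudes dashed. Of the 62 points, 54 lie below the line; the 5 named members are those whose difference passed the test.

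In single tissues, 395 of 3897 pairs of a member and a tissue were called (10.1%), against 6.67% of all pairs of a gene and a tissue. The calls came from 22 of 63 tissues. The heart had the most, 43 of 62 members (background in heart 42.4%), followed by the thyroid with 36 of 61 (44.2%), the stomach fundus with 33 of 61 (34.4%), the ileum with 29 of 63 (27.5%) and omental fat with 27 of 61 (37.7%), where each percentage is the share of all genes called in that tissue. Of these, every library of the thyroid and stomach fundus matched another animal than the labelled one. MRPL38 and MRPL41 were called in 20 tissues each and MRPS12 in 18, whereas MRPL32, MRPL46, MRPL9, MRPS22, MRPS27, MRPS33, MRPS9 and MRPS18C were called in none.

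The heart shows both groups in its libraries. MRPL4 had 0.35 FPKM in the library of ZT22, a median of 7.57 and 33.5 FPKM in that of ZT2. The limma fit gave a 15.3-fold change with a peak at ZT5.25 (adjusted p = 0.0181). Its low values rest on few reads, 3 at ZT16, 7 at ZT18 and 3 at ZT22, so this fold is uncertain. MRPL41 ran from 3.09 FPKM at ZT22 to 66.1 FPKM at ZT2 (median 19.4). MRPL1 went the other way, from 67.7 FPKM at ZT4 to 255 FPKM at ZT22 (median 123), a fitted 2.17-fold change with a peak at ZT17.3. MRPL35 ran from 270 FPKM at ZT4 to 562 FPKM at ZT16 (median 438). The heart library of ZT4, lowest for MRPL1 and MRPL35, is the one with a raised adipocyte list. Of the 43 calls in the heart, 31 peaked between ZT4 and ZT8 and 11 between ZT16 and ZT20. Of all genes tested in the heart 42.4% were called. Their split by peak time is not given here, so this split is not set apart from genes in general.

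The median peak time of the called members varied from tissue to tissue. The 17 of 62 members called in the paraventricular nuclei (20.9% of all genes) had a median peak of ZT2.41 (1.84 to 3.42). The 11 of 63 called in kidney cortex (14.5% of all genes) had a median of ZT4.27. The 15 of 62 called in the lateral globus pallidus (9.27%) had a median of ZT7.90, and the 18 of 62 of the gastrocnemian muscle (20.5%) a median of ZT9.16. In the antrum all 4 calls among 62 members (5.75% of all genes) peaked between ZT18.1 and ZT18.9. The counts in the antrum and kidney cortex are near the shares of all genes, whose peak times are not given here. Each of these medians rests on the same 12 libraries for every gene of a tissue, and the difference between tissues was not tested. With the axis as a covariate, 7 pairs were called, and the share of all pairs called then is not given here.

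Members tended to move together within libraries. Over 756 libraries, as deviations from the tissue mean, the correlation between members had a median of 0.33 over 1891 pairs, against 0.047 over all pairs of tested genes. It lay above 0 for 75.4% of member pairs and 56.2% of all pairs. These correlations share libraries, depth and the axis, and are descriptions. The first component of the members' deviations took up 45.2% of their variance and the second 19.5%. The groups defined by peak time, which come from the same libraries, separated here too: the median was 0.69 within the daytime group, 0.38 within the night group and -0.06 between them. Within single tissues the median between members ran from 0.15 to 0.67 (median 0.40 over 63 tissues).

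After removal of the axis, the median over all member pairs was 0.26, against 0.062 over all genes. The groups then had medians of 0.22 within the daytime group, 0.37 within the night group and 0.23 between them. Pairs within the large subunit had a median of 0.41, within the small subunit 0.23 and between them 0.30, before removal of the axis.

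**Figure D5:**
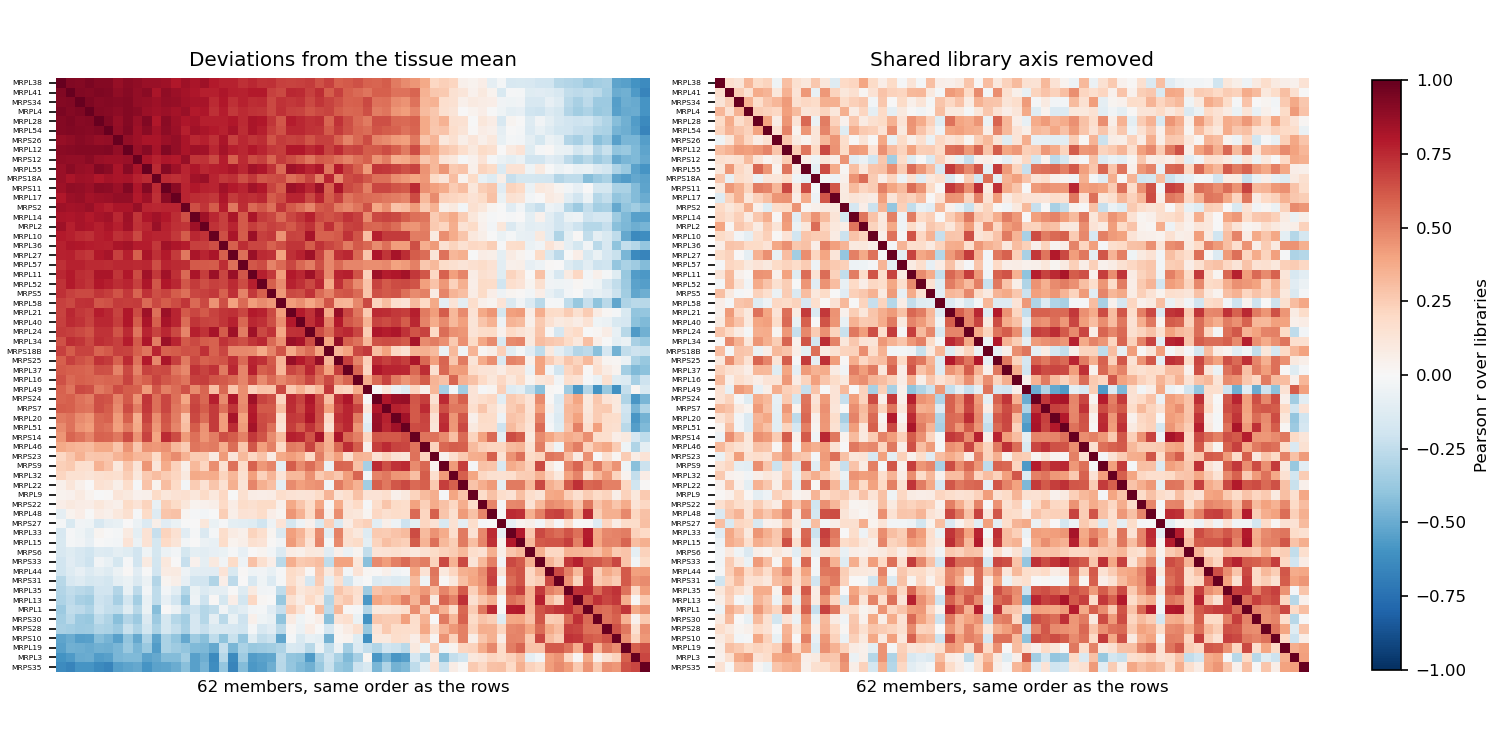
Pearson correlation between 62 members over 756 libraries, as deviations from the tissue mean (left) and after removal of the shared library axis (right), with rows and columns ordered by their correlation with that axis. The left panel holds a positive block at the upper left, a smaller one at the lower right and negative values between them; the right panel has a median of 0.26 and is mostly positive, also between members from opposite ends of the order.

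The members with the highest mean correlation with the others were MRPL21 (0.49), MRPS11 (0.48), MRPL34 (0.48), MRPS25 (0.48) and MRPL11 (0.47). The lowest were MRPL3 (-0.23), MRPS35 (-0.19), MRPL19 (-0.06), MRPS10 (-0.02) and MRPS27 (0.0020), all of the night group. Among genes outside the set, the closest by mean correlation with the members over 756 libraries were PSMB4, a proteasome subunit (0.50), HYPK (0.49), and the complex I subunits NDUFS3 (0.49), NDUFB4 (0.48) and NDUFB10 (0.48).

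The same groups, defined by peak time in these same libraries, also differed in their levels across tissues. Over 64 tissue means as deposited, the correlation between members had a median of 0.65 within the daytime group, 0.53 within the night group and 0.13 between them. The same correlations over all genes, and those with libraries scaled to the same sum, are not given here. The daytime median was 0.20 times the night median in the optic nerve head (6.93 and 34.5 FPKM), 0.22 times in the retina and 0.24 times in testicles. It was 1.53 times the night median in the lateral hypothalamus, 1.84 times in the amygdala and 6.21 times in the iris. The iris means rest on the libraries of ZT6 and ZT8 described above.

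Genes that work with the mitochondrial ribosome were followed in 5 lists, to be read against the 63.1% of all genes called body-wide, 35.2% with a daytime and 23.1% with a night peak. Of 6 tested mitoribosome proteins with other symbols (8 listed), 5 were called body-wide, 4 with a daytime peak (among them AURKAIP1, amplitude 0.76 ± 0.11 SE, and GADD45GIP1, 0.80 ± 0.13) and 1 at night (PTCD3, 0.20 ± 0.03). Of 20 tested assembly and rRNA processing factors (24 listed), 13 were called, close to the share of all genes, 10 by day and 3 by night; LONP1, a matrix protease, had an amplitude of 0.51 ± 0.06, MPV17L2 0.64 ± 0.08 and the helicase DHX30 0.58 ± 0.08, all with a daytime peak. Of 14 tested translation factors (15 listed), 11 were called, 2 by day and 7 by night. The elongation factor TUFM peaked at ZT6.27 (0.57 ± 0.08), while LRPPRC, which stabilises mitochondrial messenger RNAs, and the initiation factor MTIF2 peaked at ZT17.6 and ZT18.3 (0.21 ± 0.03 and 0.21 ± 0.04). Of 10 tested genes of mitochondrial transcription and its regulators (14 listed), 7 were called, also close to that share, 3 by day and 4 by night, with the RNA polymerase POLRMT (0.72 ± 0.09) and the nuclear receptor ESRRA (0.75 ± 0.10) by day and GABPB1 (0.19 ± 0.03) by night. Of 26 tested complex I subunits (37 listed), 20 were called, 15 by day and 5 by night; NDUFS7 had an amplitude of 1.19 ± 0.17, NDUFA13 0.94 ± 0.13 and NDUFV1 0.68 ± 0.09.

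Levels of complex I and of the mitochondrial ribosome followed each other over tissues but not in proportion. Over the 64 tissues, the median complex I subunit and the median member had a Spearman correlation of 0.89 of their tissue means; both come from the same libraries. Complex I stood at 6.88 times the members in the heart (258 and 37.5 FPKM) and 4.84 times in the gastrocnemian muscle, but at 1.33 times in mesenteric lymphonodes and 1.44 times in axillary lymphonodes. In the heart, 19 of the 26 subunits were called higher and 0 lower by limma, against 18.5% and 40.5% of all genes, with a median difference of 1.58 on the log2 scale (all genes -0.35). With the same sum 8 were higher and 7 lower, with a median of 0.36 (all genes -1.16). In testicles limma called 0 higher and 23 lower, against 32.6% and 35% of all genes, with a median of -1.49 (all genes -0.09). With the same sum 3 were higher and 12 lower, with a median of -0.49 (all genes 0.76).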

How the data were processed

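Poly(A) RNA was sequenced from stranded libraries. The authors deposited FPKM values for each row and library; STAR, featureCounts and DESeq2 appear in the submitters' processing notes, while versions, build and strand setting are not given in the sources here. Dividing the values by a step per gene and a step per library returned whole reads to within 0.01 of a read; library steps were proportional to median-of-ratios factors.

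Values were taken as log2(FPKM + 0.5), so folds of low genes are understated. A gene entered a test at an average of at least 1 FPKM; tests used limma 3.58.1 in R 4.3.3 (variance trend, Benjamini-Hochberg adjustment over all genes): level differences on each animal's tissue minus reference value, rhythms by a cosine and a sine term, for the body in genes that passed in at least 0.5 of tissues. Fits were tested on simulated data. Pairing by animal comes from the labels; 93 libraries matched another animal in expression. A marker list counted as raised at 10 FPKM and 20 times the tissue's median. Of 767 mapped columns, 8 carry an unexplained suffix. Alternatives were other pseudocounts, filters and scalings, 2 covariates, and sets of libraries.

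Members and lists were chosen with earlier results of these data known. Named members were the 5 highest and lowest by level, the 5 with the largest spread and amplitude, the 4 with the smallest p in each peak span, the 5 with the highest and lowest agreement, those whose rhythm differed between brain and periphery, 3 genes per list and 5 nearest genes; those of the level comparisons and single tissues were chosen after their values were seen. No sequence file was at hand, so none is shown.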

Additional observations from a re-analysis of the deposited data

Results flagged for a closer look

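For 5 of 62 members the test of the difference itself found a 24 h profile that differed between brain and peripheral tissues. Of all genes tested, 5.67% were called in the same test. In each of the 5 the fitted amplitude was smaller in brain, as it was for 54 of 62 members and 76.6% of all genes. With libraries scaled to the same sum, 1 member was called. Adjusted p-values from limma were 0.0223 for MRPS12, 0.0229 for MRPL41, 0.0338 for MRPS34, 0.0386 for MRPS26 and 0.0397 for MRPL10, over 12 animals. The cosine fitted to brain less periphery, which takes in timing as well as size, had amplitudes of 0.52 ± 0.09, 0.62 ± 0.11, 0.48 ± 0.10, 0.36 ± 0.08 and 0.26 ± 0.06 (log2, SE). With the shared library axis as a covariate limma called 0 of 62 members (2 at an unadjusted p under 0.05), and with a linear trend 0 (5).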

How the results depend on the processing

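Of 430 alternative values, 385 stayed within the limits set (a count within 1.5 times that reported) and 45 moved; sets without raised marker lists and tests without moderation were added after seeing the data. With libraries scaled to the same sum, members called higher and lower were 3 and 28 in brain, 3 and 35 in heart, 18 and 10 in gastrocnemian muscle, 2 and 31 in liver, 21 and 16 in testicles and 25 and 4 in aorta. All genes moved with this scaling: their median difference was then -0.61 in brain, -1.16 in heart, -0.65 in gastrocnemian muscle, -0.85 in liver, 0.76 in testicles and 0.41 in aorta. The share of all genes called under it is not given here. With the same scaling, 1 member differed in rhythm between brain and periphery, and the median correlation between members was 0.464. Members lower in kidney cortex numbered 0 with a filter at 5 FPKM, 5 without libraries that match another animal, 4 without those with a raised marker list and 3 with no replicate block, that is, without the pairing by animal; the unpaired fit moved no other count by over 1.5 times. With the library axis as a covariate, limma called 0 members body-wide (6 at an unadjusted p under 0.05), 0 in brain (10), 0 in periphery (7), 0 for their difference (2) and 7 pairs of a member and a tissue, and the median correlation with the axis removed was 0.26. With a linear trend it called 9, 0 (11 at an unadjusted p under 0.05), 9 and 0 (5) in the same order of comparisons. The difference was called for 0 members without moderation (14 at an unadjusted p under 0.05), without the library far from its tissue (17), without libraries that match another animal (10) and without those with a raised marker list (21).

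When each animal was left out in turn, the counts ran from 4 to 9 for members lower in heart, 1 to 4 for members lower in kidney cortex, 1 to 3 for members higher in testicles, 14 to 24 for a rhythm in brain and 0 to 7 for the difference between brain and periphery. The body-wide count ran from 45 to 51. Testicles could not be fitted without libraries that match another animal, since none is left. The 14 members with a median under 100 reads carry the largest counting error.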
